A study of Mus musculus with 18 samples.

Results

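The 10 rows of the deposited matrix that carry the symbols Tuba1a, Tuba1b, Tuba1c, Tuba4a, Tubb2a, Tubb2b, Tubb3, Tubb4b, Tubb5 and Tubb6 were followed across 18 libraries, out of 19862 genes in all. They comprise 4 alpha-tubulin and 6 beta-tubulin genes, chosen by name, and all 10 passed the filter on low values. After deletion of Prmt1 the tubulin messages did not move as a block. Tubb3 was higher in knockout than in control cells in each of 3 RNA preparations, Tubb6 was lower in total and heavy polysome RNA, Tubb5 and Tuba1b were lower in total RNA, and Tubb2a, Tubb2b and Tubb4b were higher in light polysome RNA.

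The cells are murine osteosarcoma (mOS) cells derived from tumors, in a p53 and Rb conditional knockout background, carrying Prmt1f/f alleles and a stably expressed CreER, a Cre recombinase that 4-hydroxytamoxifen activates. Knockout cells (labelled Prmt1-/-) were given 4-hydroxytamoxifen (4OHT), and control cells (labelled wild type) were given ethanol (ETOH), so controls carry the floxed alleles, CreER and the p53 and Rb background too. All libraries carry the labels Mix background and post natal day 299. Total RNA was kept from cleared cytoplasmic lysate made with cycloheximide, and the rest was run on a sucrose gradient, from which a Heavy pool (over 3 ribosomes per message) and a Light pool (under 3) were made. Each of the 6 groups has 3 libraries. None of these libraries comes from cells without floxed alleles that were given 4OHT, and the deletion cannot be told apart from an action of 4OHT or of active Cre. The sources used here do not say whether the cells are 1 clone, what drives CreER, or whether a group's 3 libraries are separate cultures. The p-values therefore measure the spread among these libraries alone, and that spread may be technical.

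Alpha- and beta-tubulin form the heterodimers that polymerise into microtubules, the tracks and spindle fibres of the cell. Mammals make several isotypes of each subunit from separate genes, and the isotypes differ mostly in their acidic carboxy-terminal tails, which protrude from the microtubule and bind motors and associated proteins. Tubulin messages are known for co-translational autoregulation: when free heterodimers are in excess, TTC5 recognises the first residues of the nascent chain on the ribosome, and SCAPER and the CCR4-NOT deadenylase are recruited to destroy the message.

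The first codons are shown because they encode the peptide that autoregulation reads. In the GENCODE vM21 transcripts of GRCm38 (the build also called mm10), all 10 coding sequences open with codons for methionine, arginine and glutamate. The first 4 codons are in capitals in the following 30 bases, printed 5′ to 3′ for a pair of alpha and a pair of beta genes.
Tuba1b: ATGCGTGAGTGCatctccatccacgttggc
Tuba4a: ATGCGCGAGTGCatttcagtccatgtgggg
Tubb3: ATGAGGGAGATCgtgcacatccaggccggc
Tubb5: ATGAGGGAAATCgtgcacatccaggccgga

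The alpha genes Tuba1a (gene 22142, chromosome 15, 98949847 to 98953501), Tuba1b (gene 22143, chromosome 15, 98931429 to 98934390) and Tuba1c (gene 22146, chromosome 15, 99029891 to 99038105) lie next to each other and are near copies in their coding parts. Tuba1a and Tuba1b were identical at 98.3% of aligned coding bases, Tuba1a and Tuba1c at 97.6% and Tuba1b and Tuba1c at 98.4%, with shared runs of up to 468 bases. Tubb2a (gene 22151, 34074278 to 34078008) and Tubb2b (gene 73710, 34127008 to 34130354), both on chromosome 13, were identical at 96.5%, with a shared run of 551 bases. The sources used here do not say how reads shared by near copies were counted, and values within these sets are uncertain as to which member they belong to. The remaining beta pairs were identical at 81.1% to 86.5% and share no run longer than 50 bases. Exons of Tuba4a overlap Stk16 and those of Tubb4b overlap Fam166a, both on the other strand, exons of Tuba1a and Tuba1b overlap Gm49450 on the same strand, and Tuba1b also overlaps Gm41396 on the other, so their reads could not be told apart if counting ignored strand.

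Values are CPM, read counts scaled to a common library total, obtained from the deposited log2 values. Libraries held 32.3 to 57.9 M reads, so the scarcest tubulin value, that of Tubb3, still rested on at least 144 reads. In bulk RNA, fewer cells making a message and less message per cell cannot be told apart. Prmt1 itself was at 147 to 176 CPM in Total knockout libraries, against 256 to 285 CPM in Total controls (log2 change -0.72, limma Benjamini-Hochberg adjusted p = 0.0202), and at 64.4 to 145 CPM in Heavy knockout libraries, against 370.1 to 412 CPM in Heavy controls (-1.88, adjusted p = 7.87e-06). In Light RNA its groups overlapped, with 166 to 235 CPM in knockout libraries and 218 to 255 CPM in controls (-0.20, adjusted p = 0.506). The knockout libraries numbered 1 lay farthest from their group mean in every preparation, by a root mean square of 0.196 (log2) in Total, 0.239 in Light and 0.349 in Heavy RNA. The control libraries numbered 1 also lay farthest from theirs, by 0.170, 0.152 and 0.179. Of the osteoblast markers, Col1a1 was at 699 to 4661 CPM, Col1a2 at 871 to 4304 CPM and Runx2 at 37.8 to 84.8 CPM, while Ibsp was at 0 in 17 of 18 libraries and Bglap did not exceed 0.276 CPM.

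Among control cells, tubulin levels in Total RNA spanned the range from housekeeping to scarce messages. Per kilobase of coding sequence, Tuba1b was at 2759.6 ± 212 CPM per kb (SD, n = 3), followed by Tuba1c at 2024 ± 156, Tubb5, the beta isotype most dividing cells rely on, at 1769 ± 164, and Tuba1a at 1639 ± 132 CPM per kb. Well below these came Tubb4b at 375 ± 40.5, Tubb6 at 323 ± 26.1, Tubb2a at 88.6 ± 8.69, Tuba4a at 75.7 ± 4.93, Tubb2b at 43.1 ± 5.37 and Tubb3 at 6.36 ± 0.966 CPM per kb. Of neighbours in this order, Tuba1c and Tubb5, Tubb5 and Tuba1a, Tubb4b and Tubb6, and Tubb2a and Tuba4a lay within the sum of their SDs of each other. Tuba4a encodes an alpha-tubulin that, unlike the others here, lacks the terminal tyrosine from the start.

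In Total RNA of knockout cells the order was nearly the same, with Tuba1b at 2064 ± 134, Tuba1c at 1584 ± 120.1, Tuba1a at 1328 ± 56.9 and Tubb5 at 1241 ± 105 CPM per kb. Tubb3 remained last at 21.8 ± 3.05 CPM per kb, below Tubb2b at 48.7 ± 4.70. The isotypes Tuba3a, Tuba3b, Tuba8, Tubal3, Tubb1 and Tubb4a, which are not among the 10, were each below 1 CPM in every library, the highest being Tubb4a at 0.529 CPM.

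**Figure D1:**
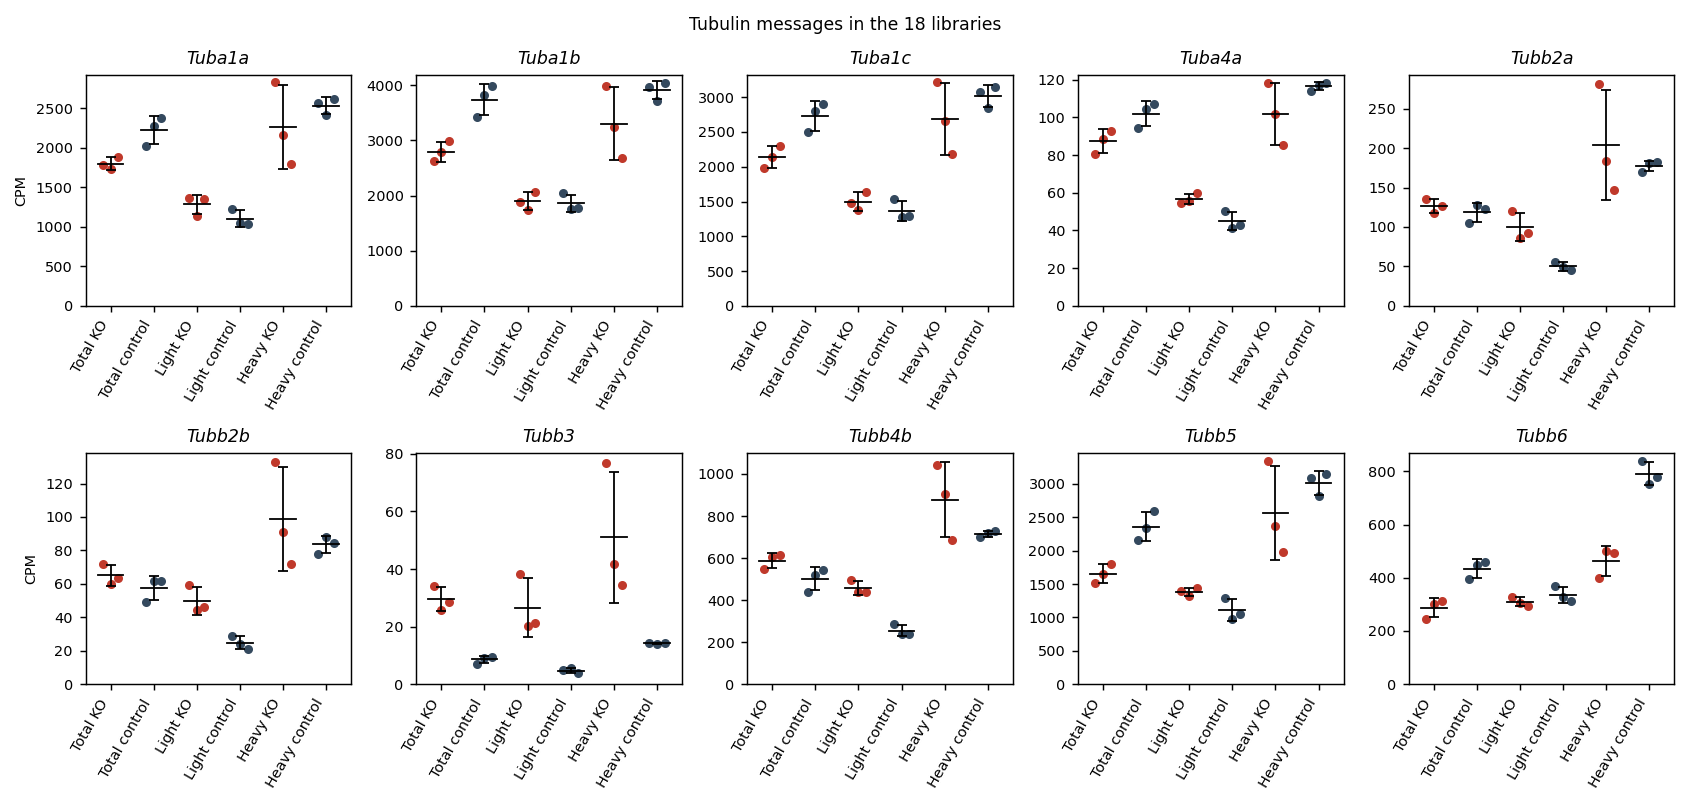
Level of each of the 10 tubulin messages in CPM on a linear axis that starts at 0, with 1 dot per library, the group mean as a horizontal line and the SD as a bar (n = 3), knockout libraries in red and controls in dark blue. The Tubb3 panel has every knockout library above every control of its preparation, and the Heavy knockout libraries of most genes spread widely, with library 1 the highest and library 3 the lowest, except for Tubb6, where library 1 is the lowest.

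The comparison of Total RNA asks which tubulin messages changed in cytoplasmic abundance. Tubb3, the beta isotype best known from neurons (gene 22152, chromosome 8, 123411553 to 123422015), was at 34.0, 25.9 and 28.5 CPM in the knockout libraries numbered 1 to 3, against 7.10, 9.25 and 9.46 CPM in the controls. The groups were far apart, with the lowest knockout library above 2 times the highest control. The change was 1.67 on the log2(CPM + 1) scale (SE 0.26), limma's Benjamini-Hochberg adjusted p being 0.000149. Tubb6, the class V beta isotype (gene 67951, chromosome 18), was at 246, 303 and 314 CPM in knockout libraries, against 394, 448 and 461 CPM in controls. No knockout library reached the lowest control, and the log2 change was -0.60 (SE 0.12, limma adjusted p = 0.00145).

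The abundant messages fell by less. Tubb5 (gene 22154, chromosome 17, 35833920 to 35838301) was at 1517, 1656 and 1798 CPM in knockout libraries, against 2158, 2333 and 2592 CPM in controls, a log2 change of -0.51 (limma adjusted p = 0.0251, SE 0.16). Tuba1b was at 2619, 2795 and 2982 CPM in knockout libraries, against 3423, 3820.5 and 3982 CPM in controls, a log2 change of -0.42 (limma adjusted p = 0.0263, SE 0.13). In both genes the groups were separate. Each of these calls was lost when Total control 2 or 3, or Total knockout 1 or 2, was left out, with adjusted p of 0.0592 to 0.0985, and 2 of the 10 genes then remained called. By contrast, 1 tubulin was called higher and 5 lower with only the Total libraries fitted, and also without Heavy knockout 1. Of 17515 genes, limma called 2909 higher and 2213 lower in the former setting, and 3303 higher and 2337 lower in the latter.

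Thus 4 of 10 tubulins were called in Total RNA, 1 higher and 3 lower, where limma called 26.4% of all 17515 genes tested, 16.1% higher and 10.3% lower. The balance of these calls depends on scaling, since 60.9% of all called genes were higher with the deposited values, 48.8% after quantile normalization and 53.7% after median-of-ratios scaling. Tubb4b (gene 227613, chromosome 2, 25222158 to 25224702), the class IVb isotype found in many tissues and in cilia, was at 548, 604 and 612 CPM in knockout libraries, against 440.2, 522 and 543 CPM in controls, the knockout libraries lying above all controls by a narrow gap (log2 change 0.23, SE 0.14, adjusted p = 0.236). Tuba1a, Tuba1c and Tuba4a had groups apart with knockout libraries lower, at log2 changes of -0.30, -0.35 and -0.22 and limma adjusted p of 0.133, 0.0639 and 0.172. Tubb2a and Tubb2b had overlapping groups, at 0.10 and 0.18. In all, 8 of 10 had groups that did not overlap, 2 with knockout libraries higher and 6 lower, where 54% of the 9651 genes of at least 5 CPM did, 25.1% higher and 28.8% lower.

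The sum of the 10 messages in Total RNA was 9580 ± 594 CPM in knockout libraries and 12280 ± 998 CPM in controls (SD, n = 3 each). By library it was 9019.7, 9518 and 10202 CPM in knockout cells, against 11192, 12493 and 13154 CPM in controls, so all knockout libraries lay below all controls. In share of the library this was 0.902% to 1.02% in knockout cells and 1.12% to 1.32% in controls.

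Light RNA, the messages with few ribosomes, gave another picture. There 5 tubulins were higher in knockout libraries and none was called lower, where limma called 39.5% of all genes, 26.8% higher and 12.7% lower. Of all called genes 67.9% were higher with the deposited values, 47.3% after quantile normalization and 46.2% after median-of-ratios scaling. The median gene of at least 5 CPM was shifted by 0.14 (log2) in Light RNA with the deposited values, by -0.01 after quantile normalization and by -0.08 after median-of-ratios scaling, and the tubulin changes are to be read against that shift.

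Tubb3 was at 38.3, 20.4 and 21.2 CPM in Light knockout libraries, against 4.75, 5.54 and 3.72 CPM in Light controls. Library 1 was the highest, and all knockout libraries were above 3 times the highest control. The log2 change was 2.24 (SE 0.26, limma adjusted p = 5.64e-06). Tubb2a, one of the class II isotypes, was at 119.9, 86.3 and 92.5 CPM in knockout libraries, against 55.9, 49.3 and 45.2 CPM in controls, a log2 change of 0.97 (limma adjusted p = 0.00056, SE 0.18). Its near copy Tubb2b was at 59.4, 44.1 and 46.1 CPM in knockout libraries, against 28.7, 24.3 and 21.0 CPM in controls, a log2 change of 0.99 (adjusted p = 0.000518, SE 0.18). For both, every knockout library was well above every control, and library 1 was again the highest.

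Tubb4b was at 498, 437 and 439 CPM in Light knockout libraries, against 286, 240.1 and 238 CPM in Light controls. The groups were separate, and the log2 change was 0.85 (SE 0.14, limma adjusted p = 0.000138). Fam166a, whose exons overlap Tubb4b, was also higher, at 22.8 to 34.2 CPM in knockout libraries and 15.6 to 16.8 CPM in controls, levels far below those of Tubb4b. The fifth call was Tuba4a (gene 22145, chromosome 1, 75214972 to 75221261), at 54.6, 55.5 and 59.8 CPM in knockout libraries, against 50.4, 41.5 and 43.1 CPM in controls (log2 change 0.33, SE 0.11, limma adjusted p = 0.0307). Its call was lost after quantile normalization (adjusted p = 0.25), after median-of-ratios scaling (0.57) and without Light control 2 or 3 or Light knockout 2 or 3 (0.0532 to 0.12). Its overlapping neighbour Stk16 went the other way, with a log2 change of -0.59 (limma adjusted p = 0.00558). Stk16 was at 63.1 to 89.8 CPM in Light knockout libraries and 113 to 129 CPM in Light controls, levels above those of Tuba4a. What the overlap adds to the Tuba4a values was not tested.

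The other 5 tubulins were not called in Light RNA. Tubb5 was at 1392, 1313 and 1435 CPM in knockout libraries, against 1295, 979.6 and 1054 CPM in controls, the groups being just apart (log2 change 0.32, SE 0.16, adjusted p = 0.119). It was called after quantile normalization (adjusted p = 0.00253), where its log2 change was 0.55. Tuba1a, Tuba1b and Tuba1c had overlapping groups at log2 changes of 0.22, 0.03 and 0.14, which became -0.010, -0.20 and -0.089 after median-of-ratios scaling. After quantile normalization they were 0.41, 0.25 and 0.32, and Tuba1a (adjusted p = 0.0206) and Tuba1c (0.0385) were called higher. The count of tubulins called in Light RNA was thus 7 after quantile normalization and 4 after median-of-ratios scaling. Of all 17515 genes, limma then called 6491 and 6913, of which 3068 and 3197 were higher. Tubb6 also overlapped, at 329, 306 and 294 CPM in knockout libraries, against 367, 326 and 311 CPM in controls (-0.11, SE 0.12, adjusted p = 0.505). In all, 6 of 10 had groups apart, all with knockout libraries higher, where 63.8% of the genes of at least 5 CPM had groups apart, 39.9% with knockout libraries higher and 23.9% lower.

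Summed over the 10 genes, Light RNA held 7219.9, 6514 and 7441 CPM of tubulin message in knockout libraries, against 6886, 5744 and 5819 CPM in controls. The groups overlapped, with means of 7059 ± 484 CPM in knockout libraries and 6150 ± 639 CPM in controls, and the direction depends on the scaling: after median-of-ratios scaling the means were 6589 CPM in knockout libraries and 6744 CPM in controls.

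In Heavy RNA, the messages with many ribosomes, 2 tubulins were called, where limma called 28.9% of all genes, 18.5% higher and 10.4% lower. Of all called genes 64.1% were higher with the deposited values, 48.9% after quantile normalization and 44.6% after median-of-ratios scaling, which moved the median gene of at least 5 CPM to -0.15 (log2), against 0.02 with the deposited values. Tubb3 was at 76.7, 41.7 and 34.4 CPM in knockout libraries, against 14.2, 14.1 and 14.2 CPM in controls. The controls hardly differed from each other while knockout library 1 stood well above the other knockout libraries, and the log2 change was 1.69 (SE 0.26, limma adjusted p = 0.000116). Without Heavy knockout 1 the change was 1.36. Tubb6 was at 397, 501 and 492 CPM in knockout libraries, against 839.8, 753 and 780.1 CPM in controls. Here library 1 was the lowest of the knockout libraries and all of them were far below the controls, with a log2 change of -0.78 (limma adjusted p = 0.000133, SE 0.12).

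The remaining 8 tubulins had overlapping groups in Heavy RNA, with log2 changes of -0.27 (Tubb5) to 0.27 (Tubb4b). Tubb5 was at 3345, 2373 and 1982 CPM in knockout libraries, against 3093, 2812 and 3150.3 CPM in controls, so library 1 lay above all controls and the others below. Tuba1b was at 3994, 3247 and 2679.7 CPM in knockout libraries, against 3972, 3722 and 4037 CPM in controls, so library 1 lay within the control range and the others below it. Without Heavy knockout 1, 7 tubulins were called, the additional 5 being Tuba1a (-0.36), Tuba1b (-0.41), Tuba1c (-0.33), Tuba4a (-0.32) and Tubb5 (-0.47), all lower, where limma then called 25.5% of all genes, 8.43% lower. Tubb2a and Tubb2b then had log2 changes of -0.11 and -0.044, against 0.15 and 0.19 with it. Groups that did not overlap made up 2 of 10 tubulins and 46.2% of the genes of at least 5 CPM (25.7% higher, 20.4% lower).

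The summed Heavy tubulin message was 15452, 12257 and 10152 CPM in knockout libraries, against 14615, 13664 and 14859 CPM in controls. Means were 12620 ± 2669 CPM in knockout libraries and 14380 ± 631 CPM in controls, a difference smaller than the spread of the knockout libraries.

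**Figure D2:**
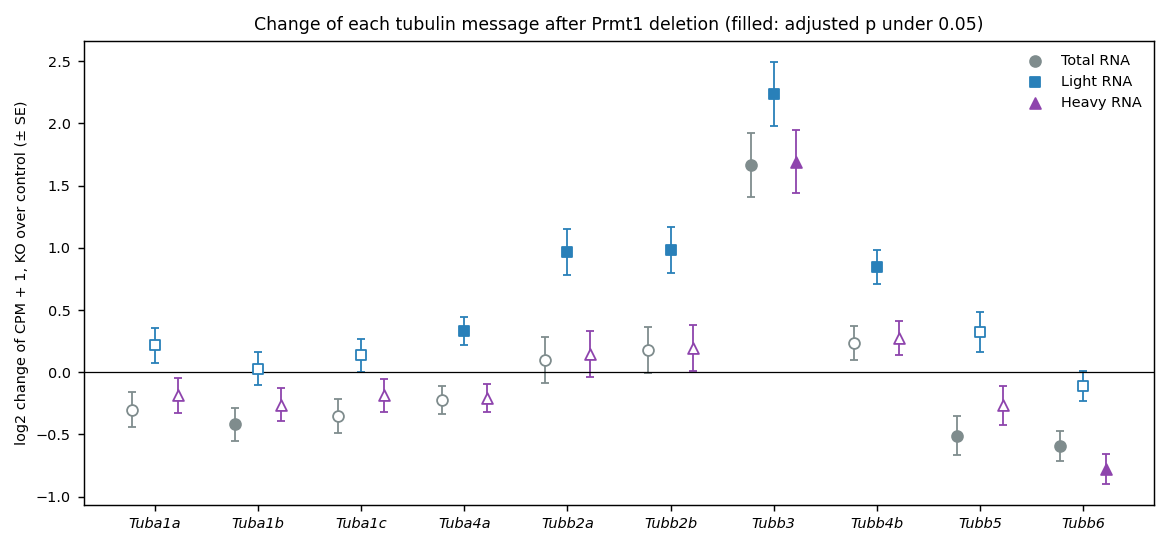
Log2 change of CPM + 1, knockout over control, of each tubulin message in Total (circles), Light (squares) and Heavy (triangles) RNA, with the SE from limma as a bar and filled symbols where the adjusted p was under 0.05. Tubb3 is filled and above 1.5 in all 3 preparations, and for every gene the Light symbol lies above the Total symbol.

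Across the 3 preparations, the calls of Tubb3 (adjusted p of at most 0.0119), of Tubb6 in Total and Heavy RNA (at most 0.0123) and of Tubb2a, Tubb2b and Tubb4b in Light RNA (at most 0.00518) held in each of the 28 alternatives run. Because Tubb3 is known from neurons, neuron markers were looked at beside it. Of 12 listed, 9 were in the table, Nefl was at 0 in all 18 libraries and Snap25 at 0 in 17. Their summed level was 1.52 to 1.82 CPM in Total knockout libraries, against 0.691 to 0.824 CPM in Total controls. It was 1.09 to 1.60 CPM in Light knockout libraries, against 0.750 to 1.27 CPM in Light controls, and 1.14 to 1.24 CPM in Heavy knockout libraries, against 0.452 to 0.840 CPM in Heavy controls. In Total and Heavy RNA this sum was higher in every knockout library than in every control, and in Light RNA the groups overlapped. Tubb3 itself lay above the sum in every group, at 3.72 to 5.54 CPM in Light controls and 25.9 to 34.0 CPM in Total knockout libraries. Summed markers of osteoblasts, chiefly Col1a1 and Col1a2, were at 4292 to 5341 CPM in Total knockout libraries and 3209 to 4667 CPM in Total controls. Summed epithelial markers, chiefly Krt19 and Krt14, were at 16.6 to 20.4 CPM in Total knockout libraries and 5.93 to 8.54 CPM in Total controls. Summed macrophage markers, chiefly Csf1r and Cd14, were at 15.2 to 19.5 CPM in Total knockout libraries and 6.62 to 8.64 CPM in Total controls, with Ptprc at 0 in 14 of 18 libraries. Summed endothelial markers were at 3.66 to 3.80 CPM in Total knockout libraries and 0.422 to 0.854 CPM in Total controls. Among them Flt1 alone reached 3.165 CPM, while Tek and Emcn were each at 0 in 15 of 18 libraries. In Light RNA the osteoblast sum was 3128 to 4858 CPM in knockout libraries and 1653 to 2108 CPM in controls, the epithelial sum 14.7 to 15.5 CPM in knockout libraries and 3.85 to 5.33 CPM in controls, and the endothelial sum 2.33 to 3.20 CPM in knockout libraries and 0.431 to 0.569 CPM in controls. In Heavy RNA the osteoblast sum was 4020 to 9108 CPM in knockout libraries and 2179 to 3142 CPM in controls, the epithelial sum 17.6 to 27.2 CPM in knockout libraries and 9.52 to 10.3 CPM in controls, and the endothelial sum 2.03 to 4.33 CPM in knockout libraries and 0.181 to 0.452 CPM in controls. The macrophage sum was 15.6 to 22.5 CPM in Light knockout libraries and 8.42 to 9.20 CPM in Light controls, and 11.7 to 15.4 CPM in Heavy knockout libraries and 8.96 to 10.1 CPM in Heavy controls. The part of these cell types in the tubulin results was not tested.

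Since each beta isotype carries its own tail, the make-up of the beta pool was taken as shares of summed CPM per kb. The ends of the coding sequences are shown for Tubb5, the main beta isotype, and for the 4 whose combined share is followed here. The final 60 bases, stop codon included, run 5′ to 3′, and capitals mark bases not aligned to an identical base of Tubb5.
Tubb5: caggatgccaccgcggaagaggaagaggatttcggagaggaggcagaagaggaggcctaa
Tubb4b: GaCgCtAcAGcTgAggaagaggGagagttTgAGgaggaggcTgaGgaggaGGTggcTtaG
Tubb2a: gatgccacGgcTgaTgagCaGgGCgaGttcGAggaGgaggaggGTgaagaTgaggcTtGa
Tubb2b: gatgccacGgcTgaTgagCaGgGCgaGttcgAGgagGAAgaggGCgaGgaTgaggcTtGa
Tubb3: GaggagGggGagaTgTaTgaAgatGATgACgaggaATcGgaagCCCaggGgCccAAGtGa
By this marking, and among the ends printed, Tubb3 departs most from Tubb5, with 24 of 60 bases in capitals, against 19 in Tubb4b, 16 in Tubb2a and 19 in Tubb2b.

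Tubb3 made up 1.32%, 0.926% and 0.957% of beta message in Total knockout libraries, against 0.222%, 0.261% and 0.247% in Total controls. It was thus a small share in all libraries, though no knockout library came near a control. The mean share in Light RNA was 1.12% in knockout libraries and 0.262% in controls, and in Heavy RNA 1.15% in knockout libraries and 0.292% in controls. Tubb4b contributed far more to the shift in make-up. Its share was 21.5%, 21.8% and 20.8% in Total knockout libraries, against 13.9%, 14.9% and 14.3% in Total controls. In Light RNA it was 20.4%, 19.8% and 18.9% in knockout libraries, against 14.0%, 14.8% and 14.2% in controls, and in Heavy RNA 19.8%, 22.1% and 20.1% in knockout libraries, against 14.3%, 15.8% and 14.7% in controls. In every preparation all knockout libraries lay above all controls.

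Tubb2a, Tubb2b, Tubb3 and Tubb4b together made up 30.9%, 29.2% and 28.2% of beta message in Total knockout libraries, against 19.1%, 20.5% and 19.4% in Total controls. The values in Light RNA were 29.3%, 26.6% and 25.7% in knockout libraries, against 18.4%, 19.6% and 18.4% in controls. In Heavy RNA they were 29.0%, 29.8% and 27.5% in knockout libraries, against 19.6%, 21.9% and 20.4% in controls. In each preparation every knockout library, number 1 included, lay above every control. The share shows unequal change within the beta pool, and dividing a library by 1 factor does not alter it. The mean share of Tubb5 was 60.2% in Total knockout libraries and 67.9% in Total controls, with the groups apart. In Light RNA it was 59.5% in knockout libraries and 62.4% in controls, and in Heavy RNA 59.9% in knockout libraries and 62.9% in controls, with overlapping groups in both. Tubb6 made up 9.60%, 10.9% and 10.6% in Total knockout libraries, against 12.4%, 12.7% and 12.1% in Total controls. In Heavy RNA the Tubb6 share was 7.49%, 12.2% and 14.3% in knockout libraries, against 17.1%, 16.4% and 15.7% in controls, the knockout libraries being lower but widely spread.

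**Figure D3:**
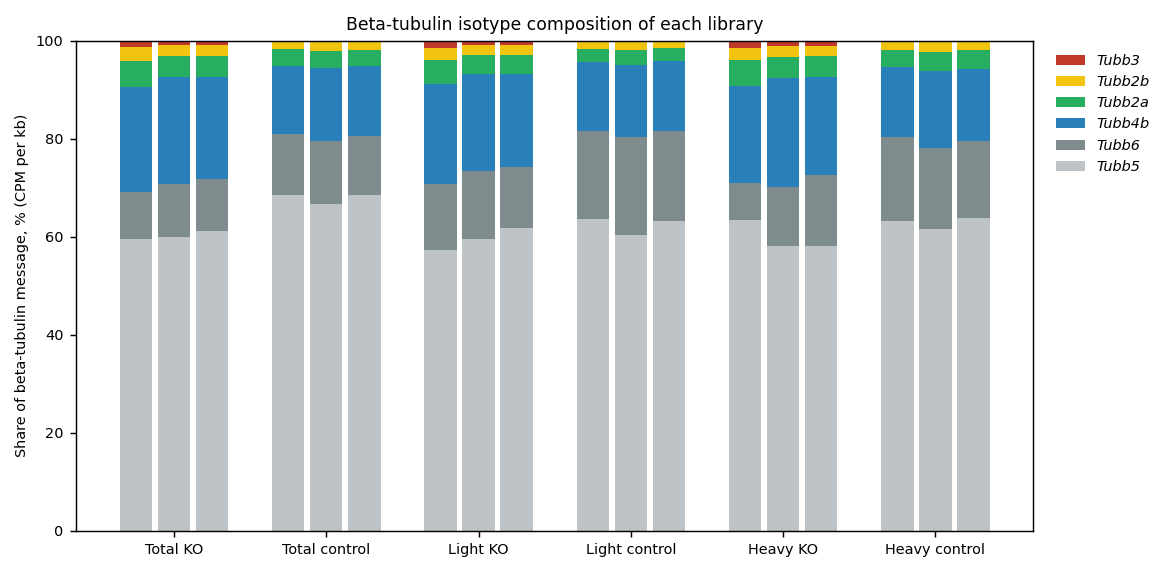
Share of each beta isotype in the summed beta-tubulin message of every library, in percent of CPM per kb, as stacked bars with 1 bar per library and knockout libraries left of controls in each preparation. The combined top segments of Tubb3, Tubb2b, Tubb2a and Tubb4b reach 25.7% to 30.9% in knockout libraries and 18.4% to 21.9% in controls.

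The ratio of summed beta to summed alpha message, per kb, was 0.516, 0.519 and 0.461 in Light knockout libraries, against 0.425, 0.399 and 0.409 in Light controls, so the groups were apart. In Total RNA it was 0.400, 0.415 and 0.410 in knockout libraries, against 0.398, 0.394 and 0.410 in controls. In Heavy RNA it was 0.525, 0.508 and 0.513 in knockout libraries, against 0.510, 0.508 and 0.504 in controls. In Total and Heavy RNA the groups overlapped. In controls the Heavy ratio was above those of the Light and Total libraries. In knockout cells the Light ratio lay within the Heavy range in libraries 1 and 2, and below it in library 3.

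The next question was where on the gradient the tubulin messages sat. All 10 were higher in Heavy than in Light RNA in knockout cells and in control cells. In knockout cells the log2 change ran from 0.57 (Tubb6, SE 0.12, limma adjusted p = 0.00091) to 0.99 (Tubb2a, SE 0.18, adjusted p = 0.000333), with a median of 0.84, where the median gene of at least 5 CPM was at 0.01 and limma called 43.6% of all genes, 16.8% higher and 26.8% lower. Of all called genes in knockout cells 38.6% were higher with the deposited values, 55.8% after quantile normalization and 48.8% after median-of-ratios scaling, which put the median gene at 0.17 and 0.15. In control cells it ran from 1.08 (Tuba1b, SE 0.13, adjusted p = 2.56e-06) to 1.81 (Tubb2a, SE 0.18, adjusted p = 3.36e-07), with a median of 1.40, where the median gene was at 0.14 and limma called 50.7% of all genes, 23.6% higher and 27.1% lower. Each of the 10 calls in control cells held in all 28 alternatives. In knockout cells the call of Tubb3 (0.89, SE 0.26, adjusted p = 0.00988) was lost with only the Heavy and Light knockout libraries fitted (0.0929), without Heavy knockout 1 (0.0633) and without Light knockout 2 (0.0552).

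Tubb2a averaged 204 ± 69.7 CPM in Heavy and 99.5 ± 17.9 CPM in Light knockout libraries (SD, n = 3 each). In control cells it averaged 177 ± 6.71 CPM in Heavy and 50.1 ± 5.42 CPM in Light libraries. The ratio of these means was 2.05 in knockout and 3.54 in control cells. Tubb6 averaged 464 ± 57.4 CPM in Heavy and 309.6 ± 17.4 CPM in Light knockout libraries, and 791 ± 44.3 CPM in Heavy and 335 ± 29.2 CPM in Light control libraries. Its ratio of means was 1.50 in knockout and 2.36 in control cells. The smaller ratio in knockout cells went with a higher Light level for Tubb2a and with a lower Heavy level for Tubb6. In Total RNA, however, Tubb6 was lower in knockout cells as well (log2 change -0.60), while the change of Tubb2a was 0.10 and not called. For Tubb6 the interaction was -0.18 (SE 0.17) for Heavy over Total and 0.485 (SE 0.17) for Light over Total, neither being called.

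**Figure D4:**
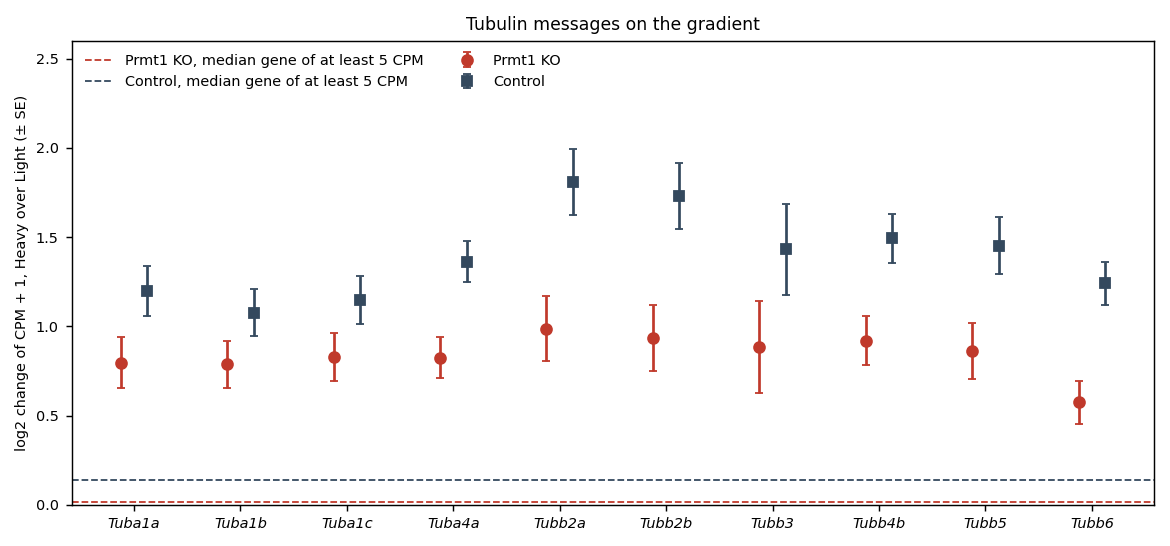
Log2 change of CPM + 1, Heavy over Light, of each tubulin message in knockout (red circles) and control cells (dark squares), with the limma SE as a bar and dashed lines at the median gene of at least 5 CPM (0.01 in knockout, 0.14 in control cells). All 20 values lie above both lines, and for each gene the knockout value lies below the control value.

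The difference between knockout and control cells in Heavy over Light was tested as an interaction. Its estimate was below 0 for 10 of 10 tubulins, with the deposited values and in each alternative, from -0.82 (Tubb2a, SE 0.26) to -0.29 (Tuba1b, SE 0.19). Among all genes of at least 5 CPM 59.3% were below 0. The median was -0.56 over the tubulins and -0.09 over those genes. Only Tubb6 was called (-0.67, SE 0.17, limma adjusted p = 0.0461), where limma called 2.87% of all genes, 2.52% lower. Of all called genes 12.3% were higher with the deposited values, 28.9% after quantile normalization and 53.1% after median-of-ratios scaling. Another 5 tubulins had an unadjusted p under 0.05, as did 15.5% of all genes. Heavy and Light libraries of the same number deviated together. The numbers may not mark pairs, since Heavy knockout 3 followed Light knockout 2 (r = 0.545) more than Light knockout 3 (0.263). With the library number as a block, Tubb6 missed the threshold (limma adjusted p = 0.0531) while Tubb2a passed it (0.0446). The Tubb6 call was lost in 21 of 28 alternatives, with adjusted p of 0.0201 to 0.151 over all of them. Without Heavy knockout 1, 7 tubulins were called, namely Tuba1a, Tuba4a, Tubb2a, Tubb2b, Tubb4b, Tubb5 and Tubb6, all lower, where limma then called 11.5% of all genes, 7.44% lower.

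The corresponding interactions with Total RNA share libraries with this one and were not called for any tubulin by limma with the deposited values of all 18 libraries. For Light over Total, the estimate was above 0 for 10 of 10, from 0.45 (Tuba1b, SE 0.19) to 0.87 (Tubb2a, SE 0.26), with a median of 0.56. Among genes of at least 5 CPM 64% were above 0, with a median of 0.15. Of the tubulins 9 had an unadjusted p under 0.05, as did 16.3% of all genes. Limma's adjusted p ran from 0.0718 to 0.474, where 0% of all genes were called. Voom on recovered reads of the same 18 libraries also called none. With only the Light and Total libraries fitted, 6 tubulins were called, all higher, where limma called 1143 of 17515 genes. Heavy knockout 1 is not in this comparison, but it enters the SE, because the spread of each gene was estimated over all 18 libraries together. Without that library, 8 tubulins were called, all higher, where limma called 1405 genes. For Heavy over Total, estimates lay between -0.18 (Tubb6, SE 0.17) and 0.24 (Tubb5, SE 0.22), none had an unadjusted p under 0.05, against 7.92% of all genes, and voom called none, where limma called 0.0114% of all genes. With SEs of 0.16 to 0.36 on the log2 scale, differences smaller than these intervals allow were not detectable.

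The tubulins varied together to unequal degrees. Over the 18 libraries, Pearson correlations of log2 values between pairs of the 10 genes had a median of 0.84 over 45 pairs and ran from -0.07 for Tubb3 with Tubb6 to 0.997. These points share libraries and fractions, so the correlations are a description. The ratio of Tuba1c to Tuba1b lay within 0.725 to 0.817 in all libraries, that of Tuba1a to Tuba1b within 0.580 to 0.724 and that of Tubb2b to Tubb2a within 0.460 to 0.529. In each preparation both alpha ratios were higher in every knockout library than in every control. For Tuba1c to Tuba1b in Total RNA the values were 0.755, 0.765 and 0.772 in knockout libraries, against 0.729, 0.732 and 0.729 in controls. These are near copies, so which member a read belongs to is uncertain. The ratio of Tubb3 to Tubb5 ranged more widely, from 0.00329 to 0.0275, and that of Tubb6 to Tubb5 from 0.119 to 0.333.

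Of the 9641 other genes of at least 5 CPM, those whose log2 level followed the summed tubulin level most closely over the 18 libraries were Haus5, a subunit of the augmin complex (Pearson r = 0.991), Slc25a12, a mitochondrial aspartate-glutamate carrier (0.987), Wdr1, an actin-disassembly factor (0.981), Acad9, a factor for assembly of respiratory complex I (0.980), and Slc7a11, the cystine-glutamate antiporter (0.979). These are the highest of 9641 correlations. The libraries mix Total, Light and Heavy RNA, between which the summed tubulin level differs, so the values are a description. Shared regulation was not tested.

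Genes that act on tubulin were counted by list, against the same background of calls. Over all genes limma called 16.1% higher and 10.3% lower in Total RNA, and 26.8% higher and 12.7% lower in Light RNA. In Heavy RNA it called 18.5% higher and 10.4% lower. The counts of every list below, where made with the deposited values, are to be read beside these shares. Other settings have their own background over the 17515 genes. Quantile normalization gave 3068 higher and 3423 lower in Light, and 2524 higher and 2639 lower in Heavy RNA. Median-of-ratios scaling gave 3197 higher and 3716 lower in Light, and 2547 higher and 3158 lower in Heavy RNA. Voom gave 4938 higher and 2279 lower in Light RNA. Of 4 gamma-, delta- and epsilon-tubulins, 3 were lower and 1 higher in Total RNA (median log2 change -0.71, against -0.03 for genes of at least 5 CPM), 2 lower in Light (-0.23, against 0.14) and 3 lower in Heavy RNA (-0.87, against 0.02). The higher one, Tubd1, was not called after quantile normalization, after median-of-ratios scaling or by voom. Tubg1, the gamma-tubulin that nucleates microtubules, averaged 77.5 ± 6.77 CPM in Total knockout libraries and 129 ± 7.61 CPM in Total controls (log2 change -0.73, limma adjusted p = 5.78e-05). In Heavy RNA it averaged 124 ± 9.79 CPM in knockout libraries and 232 ± 6.45 CPM in controls (-0.90, adjusted p = 6.75e-06). Its Heavy over Light difference between knockout and control cells was -0.60 (SE 0.14, adjusted p = 0.0365), close in size to that of Tubb6. Of 9 genes of the gamma-tubulin ring complex, 1 was lower in Total, 1 higher and 1 lower in Light, and 2 lower in Heavy RNA (medians -0.27, 0.13 and -0.06). In Light RNA none was higher and 3 were lower after quantile normalization and after median-of-ratios scaling, and none was higher and 2 were lower by voom. Tubgcp2, one of its core subunits, was lower in each, averaging 11.8 ± 1.59 CPM in Total knockout libraries and 40.9 ± 1.88 CPM in Total controls (-1.72, adjusted p = 1.8e-08), but its exons overlap Zfp511 on the other strand.

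Of 12 genes tested from the autoregulation list, 1 was higher in Total, 5 in Light and 3 in Heavy RNA and none was called lower (medians 0.03, 0.29 and -0.07). After median-of-ratios scaling 2 were higher and 3 lower in Light RNA. Scaper was called higher in all 3, its Total call being lost after quantile normalization and without the knockout libraries numbered 1. It averaged 4.10 ± 1.05 CPM in Total knockout libraries and 2.43 ± 0.390 CPM in Total controls (log2 change 0.56, limma adjusted p = 0.0114). In Heavy RNA it averaged 2.00 ± 0.282 CPM in knockout libraries and 0.774 ± 0.138 CPM in controls (0.76, adjusted p = 0.0012). Cnot10, a CCR4-NOT subunit, averaged 37.8 ± 3.89 CPM in Light knockout libraries and 20.8 ± 1.18 CPM in Light controls (0.83, adjusted p = 0.00011). Ttc5, named here after its values were seen because it reads the nascent peptide, was at 27.2 to 32.4 CPM in Total knockout libraries and 27.7 to 30.8 CPM in Total controls (limma log2 change 0.0085, SE 0.12, adjusted p = 0.979).

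Of 14 folding genes (the tubulin cofactors, Arl2 and prefoldin), 1 was higher in Total, 3 higher and 5 lower in Light, and 2 higher and 4 lower in Heavy RNA (medians -0.15, -0.20 and -0.28). Median-of-ratios scaling gave 2 higher and 8 lower in Light, and 2 higher and 7 lower in Heavy RNA. Tbcd, a cofactor that releases beta-tubulin into the heterodimer, averaged 77.6 ± 10.1 CPM in Light knockout libraries and 38.3 ± 5.33 CPM in Light controls (log2 change 1.00, limma adjusted p = 9.31e-05). The prefoldin subunit Pfdn5 averaged 251 ± 27.2 CPM in Light knockout libraries and 484 ± 22.1 CPM in Light controls (-0.95, adjusted p = 0.000707). Both overlap another gene, B3gntl1 for Tbcd and Myg1 for Pfdn5.

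Of 24 stabilizing and end-binding proteins, 4 were higher in Total, 12 in Light and 11 in Heavy RNA and none was called lower (medians 0.03, 0.38 and 0.21). Over all genes, 16.1% were called higher in Total, 26.8% in Light and 18.5% in Heavy RNA. Quantile normalization gave 6 higher in Light, and 10 higher and 2 lower in Heavy RNA, while median-of-ratios scaling gave 8 higher in Light, and 9 higher and 3 lower in Heavy RNA. Over all 17515 genes these settings gave, in that order, 3068 and 3197 higher in Light, and 2524 and 2547 higher in Heavy RNA. Clip1, a plus-end tracking protein, averaged 28.9 ± 2.98 CPM in Total knockout libraries and 19.1 ± 2.32 CPM in Total controls (0.58, limma adjusted p = 0.00536). Its relative Clip2, which overlaps the gene model Gm42884, averaged 82.7 ± 13.1 CPM in Light knockout libraries and 34.7 ± 1.93 CPM in Light controls (1.22, adjusted p = 1.1e-06). Of 14 destabilizing and severing proteins, 2 were higher and 3 lower in Total, 3 higher and 1 lower in Light, and 2 higher and 2 lower in Heavy RNA (medians -0.059, -0.0034 and 0.049). Quantile normalization and median-of-ratios scaling each gave 2 higher and 3 lower in Light RNA. Spast, the severing enzyme spastin, averaged 23.6 ± 3.00 CPM in Total knockout libraries and 33.4 ± 6.38 CPM in Total controls (-0.47, adjusted p = 0.0293).

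Of 21 tubulin-modifying enzymes, 3 were higher and 3 lower in Total, 4 higher and 8 lower in Light, and 2 higher and 4 lower in Heavy RNA (medians -0.20, -0.18 and -0.10). In Heavy RNA median-of-ratios scaling gave 2 higher and 8 lower. Ttll5, a polyglutamylase that acts on the tails, averaged 7.63 ± 0.957 CPM in Total knockout libraries and 22.1 ± 0.881 CPM in Total controls (log2 change -1.42, limma adjusted p = 1.53e-07). Ttll1, the catalytic subunit of another polyglutamylase, averaged 37.8 ± 0.249 CPM in Total knockout libraries and 24.3 ± 0.953 CPM in Total controls (0.62, adjusted p = 2.31e-05). Hdac6, which removes acetyl groups from alpha-tubulin, averaged 16.2 ± 1.02 CPM in Light knockout libraries and 7.32 ± 1.04 CPM in Light controls (1.05, adjusted p = 8.17e-05).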

How the data were processed

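The deposited table holds log2(CPM + 1) for 19862 genes and 18 libraries made by the authors, per the file headers and values. Undoing the log2 recovered whole reads (100% of values, tolerance 0.1). Per the submitters' processing notes, STAR, mm10 and edgeR were used, with no versions given. The sources used here name no counter, annotation or strand setting. The members and gene lists were chosen with earlier results of these data known. Genes above 0 in at least 3 libraries (17515) were fitted with limma 3.58.1 (trend, robust, 6 group means) in R 4.3.3. That test was checked on simulated data. The fit shares an estimate of each gene's spread over all 18 libraries, so every library enters the SE of every comparison. A call is an adjusted p (Benjamini-Hochberg) under 0.05. A change of log2(CPM + 1) understates that of low genes. The naming rule took all 10 tubulins and, per list and comparison, up to 2 called genes with the highest and 2 with the lowest change; only some are printed, chosen after their values were seen. Sequences and coding lengths come from GENCODE vM21, coordinates from RefSeq GRCm38.p6. Heavy and Light libraries of the same number deviated together (r = 0.263 to 0.641 in knockout, 0.368 to 0.471 in control cells). Among controls, same-number libraries of Light and Total RNA (-0.681 to 0.383) and of Heavy and Total RNA (-0.506 to 0.157) did not. Replicates correlated at 0.988 to 0.999 and differed by more than counting noise (chi-square per degree of freedom 12.2 to 241). Raw reads were not analysed here.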

Additional observations from a re-analysis of the deposited data

Results flagged for a closer look

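In limma's test of whether the knockout change differed between fractions, Tubb6 alone was called among the 10 tubulins. Its Heavy over Light interaction was -0.67 on the log2 scale (adjusted p = 0.0461), where limma called 2.87% of all genes. Tubb2a (-0.82, limma adjusted p = 0.106) and Tubb2b (-0.79, 0.125) had larger estimates and were not called. Outside the 10, the gamma-tubulins Tubg1 (-0.60, 0.0365) and Tubg2 (-0.68, 0.037) were called. For Tubb6, knockout over control was -0.78 in Heavy, -0.11 in Light and -0.60 in Total libraries. Under the replicate block the adjusted p of its interaction was 0.0531, and over the 28 alternatives it ran from 0.0201 to 0.151. The call was lost in 21 of these alternatives. Heavy knockout 1 was the lowest Heavy library at 397 CPM, and without it 7 of the 10 tubulins were called, Tubb6 among them. The cause was not tested.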

How the results depend on the processing

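All 10 calls of Heavy against Light in control cells, and the knockout against control calls of Tubb3, of Tubb6 in Total and Heavy, and of Tubb2a, Tubb2b and Tubb4b in Light, kept their direction and their side of the threshold in the 28 alternatives. Leaving out 1 library at a time gave 2 to 6 called tubulins in Total, 4 to 6 in Light, 2 to 7 in Heavy, 0 to 7 for Heavy over Light, 0 to 8 for Light over Total, 0 for Heavy over Total, 10 for Heavy over Light in control and 9 to 10 in knockout cells. It changed the sign of Tuba1b (-0.0336 to 0.0978) in Light, of Tubb2a (-0.11 to 0.36) and Tubb2b (-0.0436 to 0.39) in Heavy, and in Heavy over Total of Tuba1a (-0.0612 to 0.27), Tuba4a (-0.0969 to 0.13), Tubb2a (-0.21 to 0.26), Tubb2b (-0.22 to 0.22), Tubb3 (-0.31 to 0.26) and Tubb4b (-0.0961 to 0.21). Median-of-ratios scaling gave 4 called in Heavy and 0 for Heavy over Light, sums of 8518 CPM in Total knockout and 16730 CPM in Heavy control libraries, and reversed Tuba1a (-0.0101), Tuba1b (-0.20) and Tuba1c (-0.0895) in Light, Tubb2a (-0.0260) in Heavy, and Tuba1a (-0.0056), Tuba4a (-0.10), Tubb2a (-0.0721), Tubb2b (-0.10), Tubb3 (-0.0735) and Tubb4b (-0.0807) in Heavy over Total. Quantile normalization gave 1 called for Light over Total and reversed Tuba4a (-0.0150), Tubb2b (-0.0867) and Tubb3 (-0.11) in Heavy over Total. Voom and a pseudocount of 0.1 gave 0 called for Heavy over Light and reversed Tubb3 in Heavy over Total (-0.0061 by voom, -0.0133 by the pseudocount). Fitting only the libraries of a comparison gave 0 called for Heavy over Light and 6 for Light over Total. Without the knockout libraries numbered 1, 7 were called in Heavy, 7 for Heavy over Light and 3 for Light over Total, with Tubb2a (-0.11) and Tubb2b (-0.0436) reversed in Heavy, and Tuba1a (-0.0657), Tuba1b (-0.0345), Tuba1c (-0.0298), Tuba4a (-0.15), Tubb2a (-0.16), Tubb2b (-0.15), Tubb3 (-0.20), Tubb4b (-0.15) and Tubb5 (-0.0264) in Heavy over Total. Without division by coding length the beta to alpha ratio in Heavy controls was 0.501. Over all genes, calls for Heavy over Light numbered 503, with 152 by quantile normalization, 49 by median-of-ratios scaling, 785 without trend, 8 with only its libraries and 7 to 2011 leaving out 1 library, those for Light over Total 0, with 17 by quantile normalization, 347 at a mean of at least 1 CPM, 548 without trend, 1143 with only its libraries and up to 1405 leaving out 1 library, those for Heavy over Total 2, and 0 to 9, and those for knockout against control in Heavy 5061, and 2976 with only its libraries. The causes were not tested. Voom called 4, 5 and 2 tubulins in Total, Light and Heavy, and 4441, 7217 and 5326 of all genes. Without the knockout libraries numbered 1, limma called 5353 of all genes in Heavy, 1872 for Heavy over Light and 785 for Light over Total. After median-of-ratios scaling it called 5705 of all genes in Heavy.

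With the replicate block, 1 tubulin was called for Heavy over Light, Tubb2a (-0.82, adjusted p = 0.0446) in place of Tubb6 (-0.67, adjusted p = 0.0531), and no other call changed. The same numbers served as the block for the interactions with Total RNA, where same-number control libraries did not deviate together. Knockout and control libraries of the same number were not paired within a fraction (r = -0.208 to 0.602 in Total, -0.0747 to 0.104 in Light and -0.487 to -0.276 in Heavy), and the block gave 4, 5 and 2 called there too. With 3 libraries a group and SEs of 0.11 to 0.26, changes well under 0.5 on the log2 scale were often not detectable, and interactions had SEs of 0.16 to 0.36.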
